A study of Mus musculus with 6 samples.

Results

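The transcripts described here belong to 35 genes of the oligodendrocyte lineage, taken by gene name from a table of 34745 genes: 14 precursor members, whose transcripts mark oligodendrocyte precursors and cells that have just left the cell cycle, and 21 myelin members, whose transcripts mark myelinating oligodendrocytes. All 35 had counts in every library and passed the filter on low counts, which left 15267 genes to be tested. RNA came from the dorsal striatum, the part of the basal ganglia that receives input from cortex and thalamus, of C57BL/6 mice aged 1 year. The comparison was between 3 libraries from mice heterozygous for Ash1l (Ash1l het), which encodes a histone methyltransferase, and 3 libraries from wild-type (WT) mice. The labels do not describe the mutant allele and name no treatment for either group. The labels number the samples as replicates and do not say that each came from a separate animal, so every p-value measures the spread between these samples, which may be technical.

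Oligodendrocyte precursors divide in response to growth factors such as PDGF-A, carry the NG2 proteoglycan, and remain in the adult striatum as a dispersed population that can still produce new oligodendrocytes. On differentiation they lose the precursor receptors, pass through a short stage marked by Gpr17, Enpp6 and Bmp4, and switch on Myrf, the transcription factor that with Sox10 drives the genes of compact myelin. In the striatum much of the myelin wraps the axon bundles of the internal capsule that cross it. In RNA from whole tissue, fewer cells of a type and less RNA per cell cannot be told apart.

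The sequences shown are the 250 bases before the transcription start of 3 myelin members on which the results below turn: Mobp and Ugt8a, which had the highest ratios of Ash1l het to WT among the 35, and Opalin, which varied most between libraries. They were taken from RefSeq (assembly GRCm38.p6), where 26 of the 35 members had an entry. The Mobp window is chr9:120149492-120149741 on the plus strand, the Ugt8a window chr3:125938653-125938902 on the minus strand and the Opalin window chr19:41077114-41077363 on the minus strand. Each is written 5′ to 3′ along its gene, and capitals mark matches to ACAAAG on either strand, a core motif of SOX proteins such as Sox10.
Mobp: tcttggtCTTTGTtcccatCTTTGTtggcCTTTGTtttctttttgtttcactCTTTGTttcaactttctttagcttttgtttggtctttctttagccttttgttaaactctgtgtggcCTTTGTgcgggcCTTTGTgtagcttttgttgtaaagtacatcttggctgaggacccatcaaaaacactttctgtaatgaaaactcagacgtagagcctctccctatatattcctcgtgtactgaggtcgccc
Ugt8a: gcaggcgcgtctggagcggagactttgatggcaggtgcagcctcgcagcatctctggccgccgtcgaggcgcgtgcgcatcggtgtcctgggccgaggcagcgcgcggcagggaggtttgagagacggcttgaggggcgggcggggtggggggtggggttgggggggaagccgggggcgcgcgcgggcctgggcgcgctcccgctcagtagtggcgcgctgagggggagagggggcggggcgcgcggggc
Opalin: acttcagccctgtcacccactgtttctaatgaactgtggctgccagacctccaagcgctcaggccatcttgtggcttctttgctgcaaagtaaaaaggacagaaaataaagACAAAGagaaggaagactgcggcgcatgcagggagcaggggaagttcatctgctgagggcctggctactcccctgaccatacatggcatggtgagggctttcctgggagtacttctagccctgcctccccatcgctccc
The Mobp window holds 6 matches, all of them on the opposite strand (where they read CTTTGT), and it is the 1 window of 32851 in the table with that many. Mobp was picked for its ratio between groups and only its window was ranked in this way, so the rank is a description. The 6 matches lie in a stretch rich in T. Opalin has 1 match and Ugt8a has 0, in a window of 76.8% G and C against 40.8% for Mobp and 54.4% for Opalin. Of all windows 16.5% hold ACAAAG, and 11 of the 36 windows of the 26 matched members do. CTGGCAC or CTGGTAC, spellings of the Myrf motif, is in 4 of those 36 windows and in 5.93% of all windows, and CAGCTG, an E-box that Olig2 can bind, is in 3 of 36 and in 13% of all. Both strands were searched for each motif, and the last 2 motifs can overlap in part. A match is a description of the letters and was not set against binding.

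Library totals ran from 12080663 to 18798694 counts, and mitochondrially encoded genes took 15.9% to 18.8% of them. Although the protocol in the labels says male, Xist lay between 1956 and 2957 CPM (counts scaled to library size with edgeR's TMM method) in all 6 libraries, and Y-linked genes had 0 counts in 5 of them and 1 count in the other. Ash1l itself stood at 281, 198 and 253 CPM in Ash1l het and at 308, 295 and 293 CPM in WT, with a log2 fold change of -0.29 (standard error, SE, 0.13; edgeR quasi-likelihood adjusted p = 0.858). All 8 spiny projection neuron markers were detected, with sums of 6834 to 8410 CPM per library, which matches the labelled tissue. On a principal component analysis the first component, with 28.9% of the variance, put Ash1l het replicates 1 and 2 at -18.5 and -30.5 and the other 4 libraries between 4.22 and 19.95.

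No member passed the edgeR quasi-likelihood test for a difference between Ash1l het and WT. After Benjamini-Hochberg adjustment over all 15267 genes, 0 of 14 precursor members and 0 of 21 myelin members were called at 0.05, with adjusted p from 0.789 to 0.999. Across all genes the same rule called 2, or 0.0131%, neither of them a member. DESeq2, which called 35 genes in all, also called 0 members. An unadjusted p below the same threshold was reached by 5 of the 35 members, beside 5.78% of all genes. Higher in Ash1l het among them were Mobp and Ugt8a (2 members, beside 3.1% of all genes), and lower were Gpr17, Sox10 and Fa2h (3 members, beside 2.67%). The edgeR unadjusted p was 0.00663 for Gpr17, 0.0259 for Sox10, 0.0361 for Mobp, 0.0441 for Fa2h and 0.0493 for Ugt8a. That count of 5 moved with the setting: with all 6 libraries it was 5 by DESeq2, 4 by limma-voom and 1 on either log2 FPKM scale, and with single libraries left out it ran from 1 (without WT replicate 1 or WT replicate 2) to 9 (without Ash1l het replicate 3). By sign alone, 6 precursor members were higher and 8 lower in Ash1l het, with a median log2 fold change of -0.08, and 17 myelin members were higher and 4 lower, with a median of 0.07. Among all tested genes 51.4% were higher and the median was 0.0063. The myelin direction rested on a single library: without Ash1l het replicate 2 the median was -0.13 and 6 of 21 myelin members were higher, whereas with any other library left out the median was between 0.02 and 0.25.

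**Figure D1:**
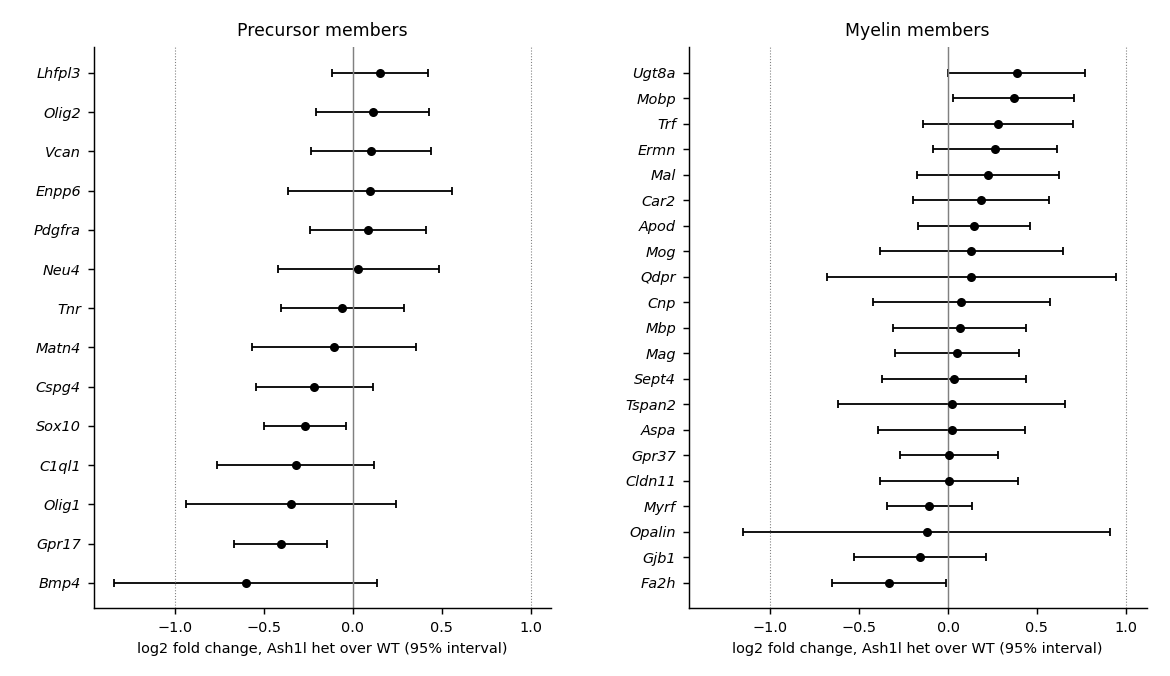
Log2 fold change of each member, Ash1l het over WT, with its 95% interval derived from the edgeR test (3 libraries per group). Dotted lines mark 2-fold differences. Most intervals span 0; those of Gpr17, Sox10 and Fa2h lie below it and those of Mobp and Ugt8a above it. Of the 35 intervals, all but those of Bmp4 and Opalin lie inside the dotted lines.

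The precision of these comparisons is set by 3 libraries per group. The 95% interval of the fold change lay within 2-fold either way for 13 of 14 precursor and 20 of 21 myelin members, beside 80.7% of all genes. Within 1.5-fold it lay for 10 precursor and 11 myelin members, beside 55.1% of all genes. Mbp, the major cytoplasmic protein of compact myelin, had a log2 fold change of 0.07 with an interval of -0.31 to 0.44. Gpr37, a receptor of differentiating oligodendrocytes, had a log2 fold change of 0.01 (-0.27 to 0.28), and Myrf -0.11 (-0.35 to 0.13). At the other end, Opalin, an oligodendrocyte membrane glycoprotein, had -0.12 with an interval of -1.15 to 0.91, which reaches past 2-fold on the lower side.

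Per length, most myelin members were more abundant than most precursor members. Levels between genes are compared in FPKM, a count scaled by gene length and library size, as the mean over 6 libraries. Mobp, an abundant small protein of compact myelin, was at 338 FPKM, followed by Mal, a proteolipid of myelin membrane, at 109 and Mbp at 102. The lowest myelin member was Aspa, the enzyme that releases acetate from N-acetylaspartate for lipid synthesis, at 3.22 FPKM. Among precursor members the transcription factors Olig1 and Sox10, which mature oligodendrocytes also express, led at 41.9 and 27.4 FPKM, and Tnr, the matrix glycoprotein tenascin-R, which some neurons also make, stood at 14.8 FPKM. The receptors and proteins more particular to precursors were lower, with Pdgfra at 4.04 and Cspg4, which encodes NG2, at 1.91 FPKM, down to Bmp4 at 0.340 FPKM.

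**Figure D2:**
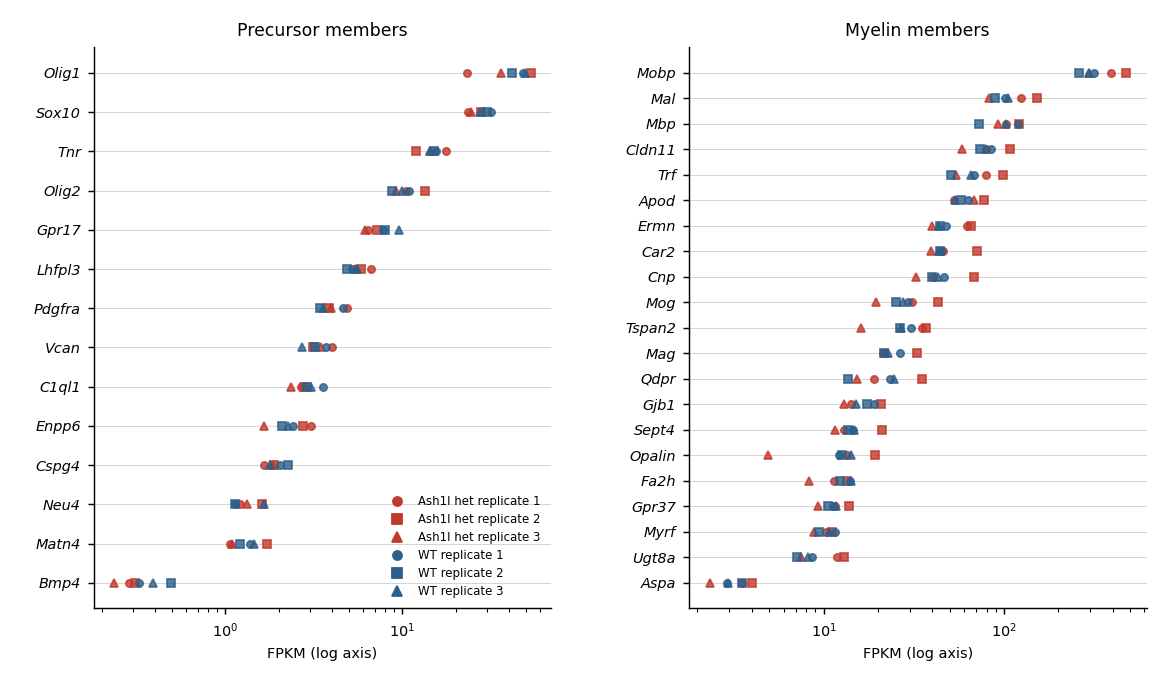
FPKM of the 35 members on a log axis, 1 point per library (circle, square and triangle for replicates 1, 2 and 3; red for Ash1l het, blue for WT), sorted by mean. Levels run from 0.340 FPKM for Bmp4 to 338 FPKM for Mobp on average, a spread far wider than that between libraries of 1 gene.

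Of the 4 receptors and surface proteins of precursors, 2 were higher and 2 lower by sign, and Gpr17 had the smallest p of all 35 members. Gpr17 (ENSMUSG00000052229), a G protein-coupled receptor of committed precursors that holds back their maturation, was at 32.9, 35.0 and 32.9 CPM in Ash1l het replicates 1 to 3 and at 40.2, 43.3 and 50.1 CPM in WT. All 3 Ash1l het libraries lay close together and below every WT library. Group means were 33.6 ± 1.19 and 44.5 ± 5.11 CPM (SD, n = 3 each). The log2 fold change was -0.41 (SE 0.12), with an unadjusted p of 0.00663 and an adjusted p of 0.789 by edgeR's quasi-likelihood test. Its gene overlaps Lims2 on the other strand, whose level came to 24.5% of that of Gpr17; the log2 fold change was -0.39 for the sum of both and, for Lims2 alone, -0.31 (SE 0.21). Pdgfra, the receptor for PDGF-A, was at 71.8, 54.2 and 60.7 CPM in Ash1l het and at 69.4, 53.1 and 53.8 CPM in WT, so the groups overlapped throughout (log2 fold change 0.08, SE 0.14). The log2 fold changes were -0.22 (SE 0.15) for Cspg4 and, for Lhfpl3, a tetraspan membrane protein enriched in precursors, 0.15 (SE 0.12).

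Of the 5 secreted and matrix members 4 were lower and 1 higher by sign. Bmp4, a signal that delays differentiation and is made by newly committed cells, was at 1.09, 1.11 and 0.935 CPM in Ash1l het and at 1.24, 1.97 and 1.51 CPM in WT. Every Ash1l het library was below every WT library, yet this rested on 15 to 33 reads per library. Its log2 fold change of -0.60 (SE 0.33) had an interval of -1.34 to 0.14. C1ql1, a secreted C1q-like protein of precursors, stood at 3.88, 3.84 and 3.57 CPM against 5.22, 4.42 and 4.52 CPM, again without overlap (log2 fold change -0.32, SE 0.20). Tnr was at 250, 161 and 212 CPM in Ash1l het and at 222, 222 and 205 CPM in WT, with Ash1l het libraries both highest and lowest (log2 fold change -0.06, SE 0.15). The large proteoglycan Vcan had 0.10 (log2 fold change, SE 0.15) and the matrilin Matn4 -0.11 (SE 0.20); counts of Matn4 share their place with Rbpjl on the other strand, at 12.4% of its level. The enzymes Neu4, a sialidase, and Enpp6, a choline phosphodiesterase of newly formed oligodendrocytes, had 0.03 (log2 fold change, SE 0.20) and 0.09 (SE 0.21).

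Among the 3 lineage transcription factors, Sox10 had groups that did not overlap. This HMG-box factor, kept at every stage of the lineage, was at 63.1, 71.1 and 68.3 CPM in Ash1l het and at 85.8, 84.3 and 74.6 CPM in WT. The lowest WT library lay only just above the highest Ash1l het library. Means were 67.5 ± 4.08 and 81.5 ± 6.08 CPM (SD, n = 3 each), and the log2 fold change was -0.27 (SE 0.10, adjusted p = 0.857 by edgeR). Sox10 (ENSMUSG00000033006) spans 79154913 to 79164490 of chromosome 15. The bHLH factor Olig1 was at 49.7, 108 and 81.0 CPM in Ash1l het and at 104, 93.5 and 106 CPM in WT. Ash1l het replicate 2 was the highest of the 6 libraries for Olig1 and replicate 1 the lowest (log2 fold change -0.35, SE 0.25). Olig2, which specifies the lineage, had a log2 fold change of 0.11 (SE 0.14).

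In all, 4 of 14 precursor members (Gpr17, Sox10, C1ql1 and Bmp4) had their 3 Ash1l het values below their 3 WT values, and 0 were higher in that way. Among all tested genes 5.53% were lower without overlap and 6.18% higher, 11.7% together. Summed over the 14 precursor members, levels were 657, 599 and 624 CPM in Ash1l het and 701, 664 and 650 CPM in WT. The largest term of these sums was Tnr, which some neurons also make, at 161 to 250 CPM per library. Olig1 and Sox10, which mature oligodendrocytes also express, are in them too, so the sums are not a level of precursors alone.

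**Figure D3:**
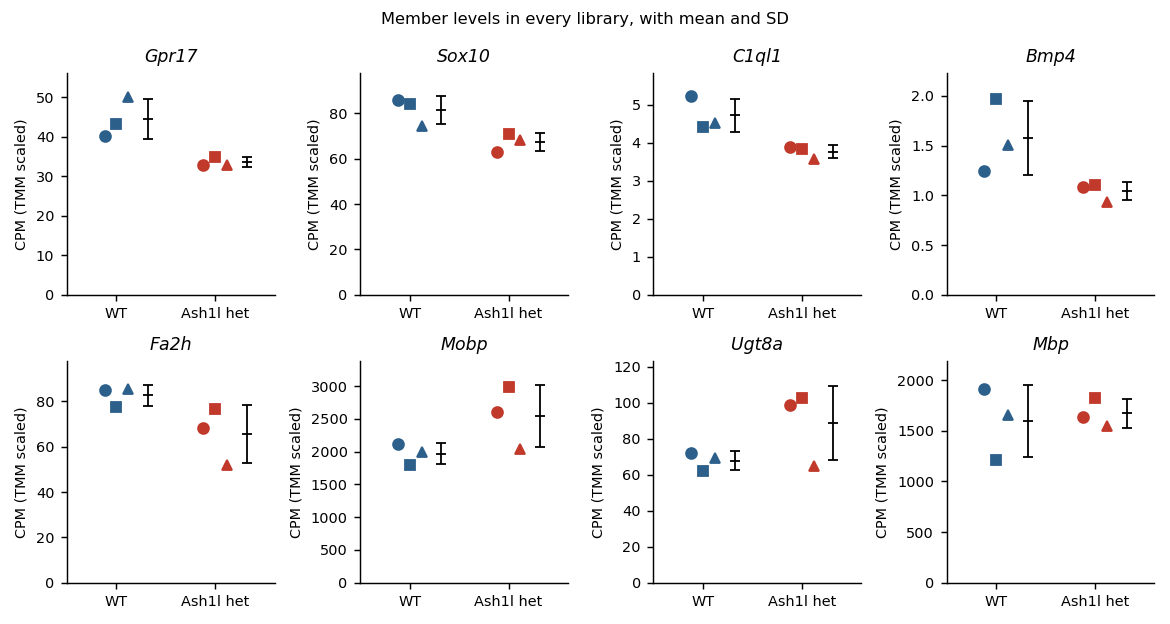
CPM (TMM scaled) of 8 members in each library, WT in blue and Ash1l het in red, with the group mean and SD beside the points; marker shape gives the replicate number. Gpr17, Sox10, C1ql1, Bmp4 and Fa2h show all 3 Ash1l het points below the WT points, whereas for Mobp, Ugt8a and Mbp the groups overlap.

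Of the 12 structural proteins of myelin, 10 were higher by sign and 2 lower, with none called. Mobp was at 2605, 2980 and 2048 CPM in Ash1l het and at 2114, 1803 and 1995 CPM in WT. Ash1l het replicates 1 and 2 exceeded every WT library, and replicate 3 lay among them. The log2 fold change was 0.37 (SE 0.15, adjusted p = 0.857 by edgeR). Mobp (ENSMUSG00000032517) lies on chromosome 9, 120149742 to 120181484, in GRCm38. Mbp was at 1638, 1824 and 1548 CPM in Ash1l het and at 1916, 1213 and 1657 CPM in WT. Here the WT libraries held both extremes, and the group means of 1670.3 ± 141 and 1595 ± 355 CPM differed by less than the SD of WT. Mal was at 385, 447 and 266 CPM against 319, 289 and 332 CPM, with all 3 WT libraries inside the Ash1l het range (log2 fold change 0.22, SE 0.18).

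The same breadth was seen in the other structural members. Opalin was at 24.7, 33.1 and 9.40 CPM in Ash1l het and at 22.4, 24.2 and 26.2 CPM in WT, a 3.52-fold range in the first group and 1.17-fold in the second. Ermn, an actin-binding protein of late oligodendrocytes, had a log2 fold change of 0.26 (SE 0.15), Mog, the glycoprotein of the outermost myelin lamella, 0.13 (SE 0.22), and Mag, the adhesion molecule next to the axon, 0.05 (SE 0.15). Cldn11, which forms the tight junctions between myelin lamellae, had 0.0 (log2 fold change, SE 0.17), and Tspan2, a tetraspanin, 0.02 (SE 0.27). Cnp, an enzyme that keeps cytoplasmic channels in myelin open, had 0.07 (log2 fold change, SE 0.22); the Dnajc7 gene on the other strand overlaps it and had 68.9% of its level, and their sum had 0.09. Gjb1, the gap junction protein connexin 32, had a log2 fold change of -0.16 (SE 0.17). Sept4, a septin of the inner myelin sheath listed in the deposited table under a date and matched by its gene identifier, had a log2 fold change of 0.03 (SE 0.18).

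The enzymes that make the galactolipids of myelin differed in sign. Ugt8a, which adds galactose to ceramide to give galactocerebroside, was at 98.9, 102 and 64.8 CPM in Ash1l het and at 72.3, 61.9 and 69.2 CPM in WT. As with Mobp, Ash1l het replicates 1 and 2 were above the WT libraries and replicate 3 was among them (log2 fold change 0.39, SE 0.17, adjusted p = 0.858 by edgeR). Fa2h, which hydroxylates the fatty acid of the same lipids, was at 68.4, 76.6 and 51.8 CPM in Ash1l het and at 84.9, 77.5 and 85.6 CPM in WT. It was the 1 myelin member of 21 whose groups did not overlap, beside 11.7% of all genes. Its highest Ash1l het library lay just under its lowest WT library (log2 fold change -0.33, SE 0.14, adjusted p = 0.857 by edgeR). Ugt8a (ENSMUSG00000032854) is on chromosome 3, 125865271 to 125938619, and Fa2h (ENSMUSG00000033579) on chromosome 8, 111345135 to 111393824. Aspa had a log2 fold change of 0.02 (SE 0.18).

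All 4 carrier and metabolic members were higher by sign, and Ash1l het replicate 2 was the highest library for all 4. Without that library the log2 fold changes were 0.11 for Trf, 0.063 for Apod, -0.0496 for Car2 and -0.25 for Qdpr. Trf, the iron carrier transferrin, which oligodendrocytes and choroid plexus make, was at a log2 fold change of 0.28 (SE 0.19), and Car2, carbonic anhydrase II, 0.19 (SE 0.17). Apod, the lipid carrier apolipoprotein D, had 0.15 (log2 fold change, SE 0.14) and Qdpr, which recycles tetrahydrobiopterin, 0.13 (SE 0.33). Choroid plexus markers summed to 27.1 to 41.1 CPM per library, with 4 of 8 passing the filter, while Trf stood at 265 to 466 CPM.

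Most myelin members varied between libraries together, and more within Ash1l het than within WT. Ash1l het replicate 2 was the highest of the 6 libraries for 17 of 21 myelin members, beside 24.1% of all genes, and Ash1l het replicate 3 was the lowest for 14 of 21, beside 14.2% of all genes. For precursor members these counts were 3 and 3 of 14. The fold range across libraries was wider in Ash1l het than in WT for 19 of 21 myelin and 7 of 14 precursor members, beside 68.6% of all genes. Summed, the myelin members came to 7011, 8286 and 5826 CPM in Ash1l het and to 6771, 5465 and 6261 CPM in WT, so that WT lay within or below the Ash1l het range. The share of counts on mitochondrially encoded genes was 17.3%, 15.9% and 18.8% for the Ash1l het libraries against 16.2%, 18.8% and 16.7% for the WT libraries, lowest in the library with the highest myelin sum and highest in the pair with the lowest myelin sums; their part in this spread was not tested. With Ash1l het replicate 3 left out the median log2 fold change of the myelin members was 0.25 and 18 of 21 were higher; without replicate 2, as given above, 6 were. In none of these fits was a member called, and the smallest adjusted p of any member in any setting was 0.200 by edgeR, without Ash1l het replicate 3.

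**Figure D4:**
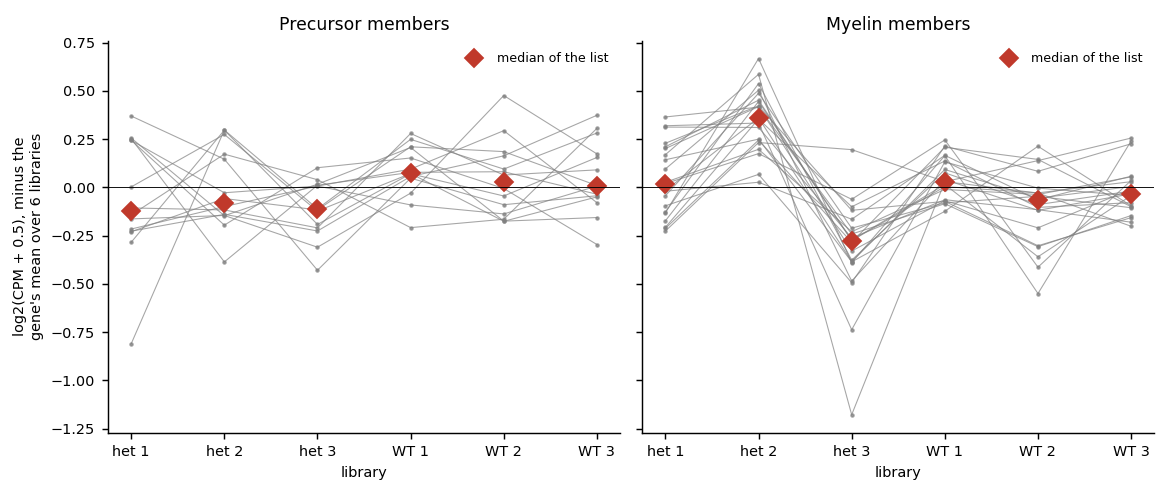
Log2(CPM + 0.5) of each member in each library minus its mean over 6 libraries; a thin line joins the values of 1 gene and a diamond marks the median of the list. Myelin members sit high in Ash1l het replicate 2 (median 0.36) and low in Ash1l het replicate 3 (median -0.28), whereas the precursor medians in the same libraries are -0.08 and -0.11.

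Markers of other cell types also differed between these libraries. The 10 astrocyte markers summed to 5263, 5123 and 3758 CPM in Ash1l het and to 5003, 4258 and 4092 CPM in WT. The largest term of these sums was Slc1a2, at 3471, 2905 and 2292 CPM against 3453, 2832 and 2572 CPM. Of the 10 markers 0 were called, 4 were higher and 6 lower by sign (median log2 fold change -0.03). Gfap, which had the highest log2 fold change of the list (2.06, SE 0.81), was at 412, 733 and 104 CPM against 154, 62.1 and 83.7 CPM. The 8 microglia markers summed to 370, 531 and 374 CPM and to 410, 364 and 399 CPM, highest in Ash1l het replicate 2. Erythroid markers were higher by sign for 5 of 5 genes, with sums of 123, 110 and 56.1 CPM against 25.1, 35.4 and 22.99 CPM, and cortical projection neuron markers, 8 genes, ran from 37.7 CPM in Ash1l het replicate 2 to 119 CPM in replicate 1. Spiny projection neuron markers were lower by sign for 7 of 8 genes (median log2 fold change -0.15), with sums of 6834, 7233 and 8410 CPM in Ash1l het and 7776, 7179 and 8342 CPM in WT, highest in Ash1l het replicate 3. Endothelial markers were higher by sign for 6 of 7 (median log2 fold change 0.20), with sums of 235, 209 and 259 CPM against 185, 225 and 198 CPM. Sums per library were 181 to 241 CPM for mural cell markers, 28.4 to 52.8 CPM for fibroblast markers and 27.7 to 36.5 CPM for ependymal markers. Erythroid sums were higher in each Ash1l het library than in any WT library. The part of these other cell types in the values of the members was not tested. Schwann cells, which make the myelin of peripheral nerve, left little trace: their 4 markers, of which 1 passed the filter, summed to 1.51 to 2.52 CPM, and Pmp2 had 0 counts in every library.

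Since most myelin members varied together, their levels were also set against each other within each library, a measure that needs no scaling between libraries and was chosen after the values were seen. Each member was divided by the median of the other 20. On this scale the spread among Ash1l het libraries was smaller for 18 of 21 members, with a median SD of 0.17 in place of 0.365 (log2), while in WT it was 0.0965 in place of 0.113. The Ash1l het spread was larger for Mbp, Myrf and Apod (SD 0.27, 0.31 and 0.41 in place of 0.12, 0.10 and 0.25). Mobp, Ugt8a, Trf and Car2 then had all Ash1l het values above all WT values, with mean log2 differences of 0.34, 0.36, 0.25 and 0.20. Fa2h lay lower in every Ash1l het library, with a mean log2 difference of -0.35. These are 5 of 21 members; measured against the same median, 3.07% of the other 15246 genes had groups without overlap, though their spread on this scale differs from that of the myelin members, so the shares are not like for like. No test was run on values picked in this way.

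**Figure D5:**
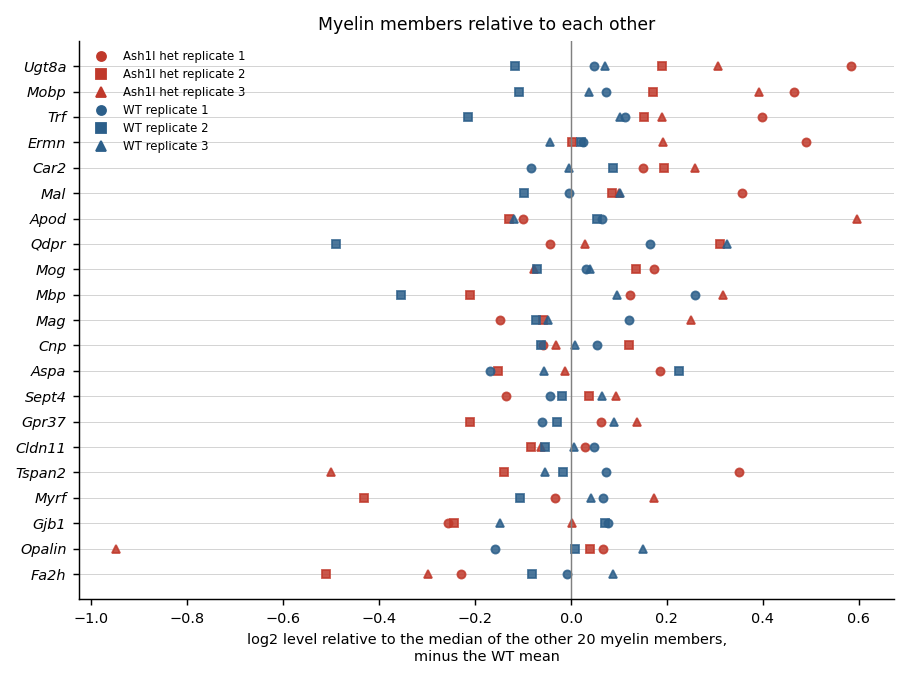
Log2 level of each myelin member relative to the median of the other 20 in the same library, minus its WT mean; red for Ash1l het, blue for WT, with marker shape for the replicate. For Ugt8a, Mobp, Trf and Car2 the 3 red points lie right of the blue, and for Fa2h they lie left.

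Of all pairs of members, the ratio of Mobp to Fa2h separated the groups by the widest gap. In CPM the ratio was 38.1, 38.9 and 39.5 in Ash1l het and 24.9, 23.3 and 23.3 in WT, with means of 38.8 ± 0.726 and 23.8 ± 0.939 (SD, n = 3 each), a 1.63-fold difference. Ratios within each group were close together although Mobp itself ranged 1.46-fold among the Ash1l het libraries. Ugt8a to Fa2h gave 1.45, 1.34 and 1.25 against 0.852, 0.799 and 0.809. Among 595 pairs 112 (18.8%) had ratios that did not overlap between groups, and among the 210 pairs of myelin members 43 (20.5%) did, of which 13 held Fa2h and 12 held Mobp. Over all pairs of the 15230 tested genes with a count in every library the share was 11.8%. Pairs share genes and are not independent. Most myelin members also varied together, so the spread of their ratios can differ from that of other pairs. The shares are given side by side and are not like for like. The widest of 595 gaps is picked for its size, so it is given as a description.

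Other genes of the lineage, outside the 35, were read from 7 lists chosen by function. In each of the 7, 0 genes were called by the edgeR quasi-likelihood test. Other precursor genes were higher by sign for 8 of 12 (median log2 fold change 0.04); the 3 with the smallest p were Tmem100, a membrane protein, at a log2 fold change of -0.32 (SE 0.14), Cspg5, the proteoglycan neuroglycan C, at -0.22 (SE 0.10), and Cacng4, an AMPA receptor auxiliary subunit, at -0.22 (SE 0.13). Of 13 tested genes of newly formed oligodendrocytes, 4 were higher and 9 lower (median log2 fold change -0.10). Without overlap, 1 was higher and 1 lower, beside 6.18% and 5.53% of all genes. The homeobox factor Nkx2-2, which acts as cells begin to differentiate, was at 2.99, 5.21 and 4.40 CPM in Ash1l het and at 7.45, 8.37 and 5.27 CPM in WT, without overlap by a narrow margin (log2 fold change -0.74, SE 0.26, adjusted p = 0.857 by edgeR). In the same list Tmem2, a hyaluronidase, had 0.48 (log2 fold change, SE 0.17) and Bcas1, a marker of early myelinating cells, 0.45 (SE 0.17), at 435, 512 and 320 CPM against 351, 275 and 299 CPM.

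Further myelin and mature oligodendrocyte genes, read in the same 6 libraries, were higher by sign for 21 of 32 (median log2 fold change 0.09), beside 51.4% of all genes. As for the myelin members, Ash1l het replicate 2 was often the highest library, for 16 of these 32 genes, beside 24.1% of all genes. Replicate 3 was the lowest for 14, beside 14.2% of all genes. Grb14, an adaptor that inhibits the insulin receptor, was at 23.6, 23.3 and 19.2 CPM against 16.3, 16.6 and 16.5 CPM, all 3 Ash1l het libraries above WT (log2 fold change 0.42, SE 0.13, adjusted p = 0.816 by edgeR). Dock5, a Rac activator, had 0.35 (log2 fold change, SE 0.14) and Gsn, the actin-severing protein gelsolin, 0.39 (SE 0.19), likewise without overlap. These genes were named for their small p. Of the 32 genes, 4 were higher without overlap and 0 lower, beside 6.18% and 5.53% of all genes.

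Genes of lipid synthesis, regulation and signalling were near balance by sign. Of 15 lipid synthesis genes 7 were higher and 8 lower (median -0.01), with fatty acid synthase Fasn at a log2 fold change of -0.32 (SE 0.15) and Sptlc2, a subunit of the first enzyme of sphingolipid synthesis, at 0.14 (SE 0.11). Of 17 transcription regulators, a list that also holds Nkx2-2, 10 were higher and 7 lower (median 0.07), and Id2, an inhibitor of differentiation factors, had a log2 fold change of 0.24 (SE 0.16). Among 21 tested ligands, receptors and inhibitors 10 were higher and 11 lower (median log2 fold change -0.01). The groups did not overlap for 1 gene of the 21, beside 11.7% of all genes. Pdgfa, the ligand of Pdgfra, was at 12.8, 12.6 and 15.6 CPM in Ash1l het and at 17.6, 18.2 and 16.8 CPM in WT, below WT in every library (log2 fold change -0.36, SE 0.14, adjusted p = 0.857 by edgeR). Axin2, a target and inhibitor of Wnt signalling, had -0.27 (log2 fold change, SE 0.15), and Cntf, a cytokine of the IL-6 family, was under 1 CPM in every library with 0 counts in WT replicates 2 and 3.

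Matrix genes of the lectican and tenascin network, which precursors and astrocytes both secrete, were higher for 3 of 8 and lower for 5 (median log2 fold change -0.03). Of the 8, 1 had groups that did not overlap, beside 11.7% of all genes. Ncan, the proteoglycan neurocan, was at 166, 126 and 199 CPM in Ash1l het and at 249, 260 and 246 CPM in WT. Every Ash1l het library was well below the WT libraries, which lay close together (log2 fold change -0.62, SE 0.16). Its unadjusted p of 0.00300 was the smallest of any gene in the 7 lists, and its adjusted p by edgeR was 0.741. Bcan, the related brevican, had -0.19 (log2 fold change, SE 0.29) and Hapln2, a link protein at nodes of Ranvier, 0.37 (SE 0.28).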

How the data were processed

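Members and gene lists were chosen with earlier results of these data known. Per the labels' protocols, RNA was extracted with TRIzol and a kit that keeps strand was used for mRNA libraries. Tools listed in the submitters' processing notes are edgeR, StringTie, HISAT2, FastQC and CASAVA, with the build GRCm38; the sources used here give neither their roles and versions nor whether counting used strand, so counts of genes that overlap on opposite strands are uncertain. The authors deposited raw read counts per gene and FPKM for the same genes; the files of single samples matched the series table (0 genes differing), and for 99.1% of genes averaging 10 counts or more the ratio of count to FPKM implied a whole gene length (tolerance 0.1 base).

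Counts were fitted with edgeR 4.0.16 (R 4.3.3): TMM scaling, expression filter with minimum count 10, robust quasi-likelihood test with genotype as the single term over all 6 libraries, Benjamini-Hochberg adjustment over 15267 genes and a threshold of 0.05. CPM are TMM scaled, log2 fold changes put Ash1l het over WT, and intervals are 95%. The test itself gives no SE. Each SE was derived as the absolute log2 fold change over the square root of the F statistic of the quasi-likelihood test. Intervals add and subtract that SE times a t quantile. The steps were tested on simulated counts. Alternatives were DESeq2 1.42.0, limma-voom (limma 3.58.1), RLE and upper-quartile scaling, no filter, a filter of 1 CPM in 3 libraries, limma on the log2 FPKM of genes averaging 0.5 FPKM or more (pseudocount 0.1 or 1), a replicate block, a threshold of 0.10 and each library left out.

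Members were named with every library's value if their unadjusted p was under 0.05, if they were among the 3 most abundant by FPKM or the 3 with the smallest p in their list, and for Mbp and Pdgfra; C1ql1 and Opalin were added after their values were seen. Of each other list up to 3 genes with the smallest p were named; some genes that this rule selects are not reported here. Gene coordinates are those of GRCm38, and 29 of 35 members had the same start and end in GENCODE M21. Promoter windows are from RefSeq.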

Additional observations from a re-analysis of the deposited data

How the results depend on the processing

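With 3 libraries per group, 0 of 35 members were called in any of the 16 settings run, and the smallest adjusted p of a member was 0.200 by edgeR. Of the 35, 30 kept their direction over the 9 settings with all 6 libraries and 16 kept it with each library left out. Genes called numbered 2 and became 35 with DESeq2 and 1 to 13 with single libraries left out (13 without Ash1l het replicate 3, 1 without WT replicate 3). The precursor median of -0.08 was -0.042 on log2(FPKM + 0.1), -0.039 on log2(FPKM + 1) and between -0.14 and -0.053 with libraries left out. The 17 myelin members higher by sign became 6 to 18, with 6 without Ash1l het replicate 2; the cause was not tested. Members with an unadjusted edgeR p under 0.05 numbered 5 and became 1 on both log2 FPKM scales (limma), 3 with the replicate block and 1 to 9 with libraries left out (9 without Ash1l het replicate 3).

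Directions near 0 reversed with all 6 libraries for 5 myelin members. The log2 fold change of Cldn11 was -0.0037 with DESeq2, -0.027 with limma-voom, -0.0019 with RLE scaling and -0.0012 with no filter. Gpr37 was at -0.0017 with DESeq2 and -0.0054 with limma-voom, and limma-voom put Aspa at -0.014, Sept4 at -0.0033 and Tspan2 at -0.058. Tspan2 was at -0.017 on log2(FPKM + 0.1) and -0.013 on log2(FPKM + 1).

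With single libraries left out, log2 fold changes of precursor members that reversed ran from -0.031 to 0.22 for Pdgfra, -0.066 to 0.23 for Neu4, -0.015 to 0.21 for Vcan, -0.32 to 0.0057 for Matn4, -0.22 to 0.093 for Tnr, -0.012 to 0.20 for Olig2 and -0.092 to 0.30 for Enpp6. For myelin members they ran from -0.10 to 0.22 for Mbp, -0.13 to 0.35 for Mog, -0.14 to 0.16 for Mag, -0.24 to 0.25 for Cnp, -0.21 to 0.17 for Cldn11, -0.11 to 0.19 for Aspa, -0.52 to 0.25 for Opalin, -0.10 to 0.11 for Gpr37, -0.15 to 0.29 for Tspan2, -0.23 to 0.17 for Sept4, -0.0496 to 0.32 for Car2 and -0.25 to 0.33 for Qdpr. Outside the members they ran from -0.43 to 0.0803 for Bcan.

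Replicate numbers are shared between groups. Deviations of same-numbered libraries correlated at 0.0684, -0.0772 and 0.00715, and those of differently numbered libraries at -0.14 to 0.138. With 3 libraries per group these values cannot tell whether the samples were paired. With the replicate block 3 genes were called in all and 0 members; Cldn11 was at -0.027, Gpr37 at -0.0044, Tspan2 at -0.054 and Sept4 at -0.0033.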

Other observations

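The summed myelin members were also set against the lineage transcription factors Sox10 and Olig2, as ratios within each library. These ratios were chosen after the values were seen and were not tested. Against Sox10 the ratio of CPM was 111, 116 and 85.3 in Ash1l het and 78.9, 64.8 and 84.0 in WT, so each Ash1l het library was above each WT library, by a narrow margin for replicate 3. Sox10, the divisor, was itself lower in every Ash1l het library, as given above, so this ratio is not independent of that difference. Mobp and Mbp are large terms of the sum, and their part in the ratio was not tested. Against the median myelin member, Sox10 was at -1.11, -1.38 and -0.64 (log2) in Ash1l het and at -0.67, -0.72 and -0.84 in WT. The groups overlapped, as they did for the other 13 precursor members on this scale. Against Olig2 the ratio of the sum was 278, 271 and 252 in Ash1l het and 256, 246 and 257 in WT, and the groups overlapped. For Olig1 the ratio of the sum was not taken. Mobp alone over Olig1 was 52.4, 27.7 and 25.3 in Ash1l het and 20.3, 19.3 and 18.7 in WT, without overlap. That pair was picked for its wide gap, so it is a description. Summed myelin over summed precursor members, of which Tnr is the largest term, gave 10.7, 13.8 and 9.34 in Ash1l het and 9.65, 8.23 and 9.63 in WT, with overlap.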
